A study of Rattus norvegicus with 28 samples.

Results

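The alloresponse on day 2 is described here as a difference of 2 changes: the change of mismatched hearts from normal hearts of their donor strain, minus the change of matched hearts from normal hearts of theirs. Members were chosen by sample title, which gave 12 of the 28 arrays of the series, 3 in each of 4 groups, and all 14217 genes measured on them. The groups were endothelial cells of DA (Dark Agouti) hearts 2 days after grafting into Lewis rats (allografts), of normal DA hearts, of Lewis hearts 2 days after grafting into Lewis rats (isografts), and of normal Lewis hearts. All rats were male, grafts had been attached in the neck with cuffs, and both graft types had Lewis recipients. From minced hearts, leukocytes had first been taken out with an antibody to CD45, and endothelial cells had then been collected with an antibody to CD31, both on magnetic beads. The labels name no DA heart grafted into a DA rat, so the mismatch and the donor strain cannot be told apart in a graft.

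Endothelium lines the vessels of a graft and is the first donor tissue that recipient leukocytes meet. It catches leukocytes with selectins and adhesion receptors, shows peptides to T cells on major histocompatibility complex (MHC) molecules, and answers interferons, the alarm proteins of infected cells and of activated lymphocytes. Innate cells such as macrophages and neutrophils enter any injured graft within days, while T cells primed against donor MHC follow later.

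All 12 arrays carried endothelial markers at a level above isolated leukocytes. The mean of 20 endothelial marker genes was 11.70 to 11.93 log2 on allograft arrays, 11.93 to 11.94 on normal DA arrays, 11.88 to 12.002 on isograft arrays and 11.75 to 11.94 on normal Lewis arrays, against 8.33 to 10.36 on the 4 leukocyte arrays of the series. The leukocyte arrays were of day 2, of day 3 (replicates 1 and 2) and of day 4. Transcripts of 18 pan-leukocyte genes averaged 8.46 to 9.02 in allografts, 6.88 to 7.003 in normal DA hearts, 7.56 to 8.28 in isografts and 6.98 to 7.29 in normal Lewis hearts, with 11.87 to 12.06 on the leukocyte arrays. Leukocyte transcripts were therefore higher in every graft preparation than in normal hearts and lower than in isolated leukocytes, with every allograft above every isograft. Their part in the results below was not tested. In bulk RNA, fewer cells of a type and less RNA per cell cannot be told apart. A pair of arrays stood apart from their groups. Allograft replicate 3 had a fibroblast list mean of 9.94 log2, where its group's other arrays had 7.32 and 7.79, and correlated at 0.972 and 0.980 with them. Isograft replicate 2 had a pan-leukocyte mean of 8.28, where its group's other arrays had 7.59 and 7.56. Values without one or both of this pair are given beside several of the results below. Other arrays stood apart in single lists. The proliferation mean was 8.78 log2 on normal DA replicate 1, against 7.82 and 7.52 on its group's other arrays. The labels do not say whether replicates were separate animals, so p-values measure only the spread between these arrays.

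Both graft types had genes that rose and genes that fell on day 2. In allografts, 502 genes rose (3.53%) and 348 fell (2.45%) against normal DA hearts, and in isografts 151 rose (1.06%) and 60 fell (0.422%) against normal Lewis hearts (limma, adjusted p under 0.05). These shares are the background for the counts of list members below. Called in both, with the same sign, were 178 genes, which are 20.9% of the allograft calls and 84.4% of the isograft calls. No gene passed the test of the difference between both changes, either higher (0%) or lower (0%), and the smallest adjusted p over all genes was 0.9999 in limma. At an unadjusted p under 0.05, 289 genes had a higher change in allografts (2.03%) and 191 a lower one (1.34%), 480 in all (3.38%). If no gene differed, a share of 0.05 would be expected under that threshold on average, more than the share found. Counts at an unadjusted p are therefore descriptions and not calls. In a fit that gave each array a weight, 4 genes passed (0.0281%), namely Mis18a, Nckap1l, RT1-Da and RT1-Db1, all higher. That fit weighted allograft replicate 1 at 2.67 and replicates 2 and 3 at 0.37 and 0.32, so its allograft mean followed replicate 1 most. A difference had a median standard error (SE) of 0.234 log2 and a median 95% interval of 0.487 to either side, before any adjustment for the number of genes. A log2 difference of 1 is 2-fold.

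**Figure D1:**
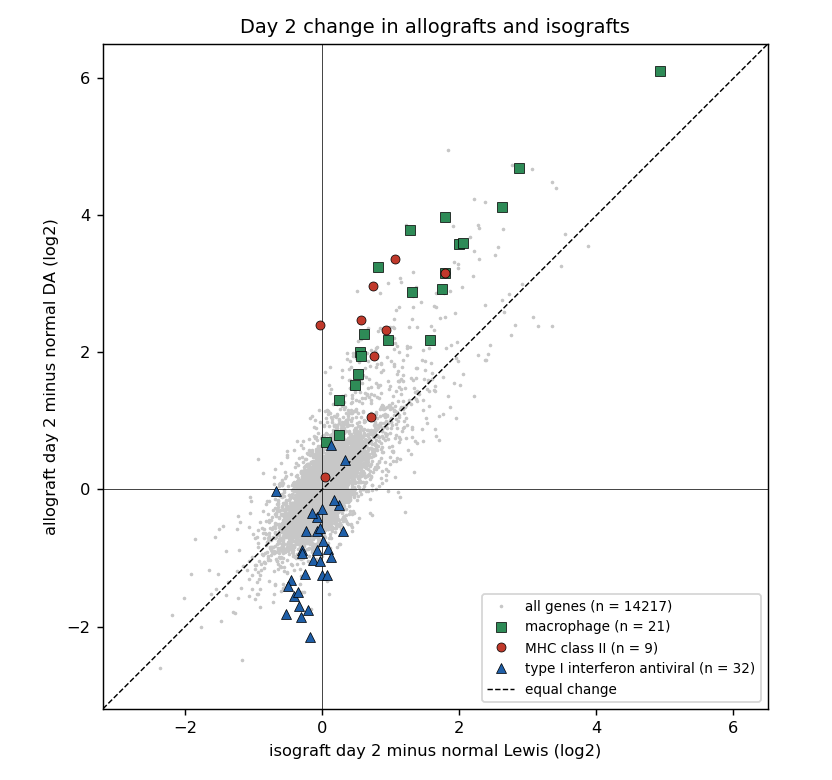
Each point is 1 of 14217 genes, with its isograft change (day 2 minus normal Lewis, log2) on the horizontal and its allograft change (day 2 minus normal DA, log2) on the vertical axis, means of 3 arrays. The cloud runs along the line of equal change, with macrophage and MHC class II genes above it and type I interferon antiviral genes below.

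Across genes, which are not independent replicates, the allograft and isograft changes had a Pearson r of 0.769 and a Spearman rho of 0.593, with no array shared between them. Of the 366 genes that rose past the threshold in allografts alone, 350 (95.6%) also had a positive isograft change, and their median changes were 1.01 log2 in allografts and 0.49 in isografts. Of the 306 that fell in allografts alone, 290 (94.8%) had a negative isograft change, with medians of -0.72 and -0.33 log2. The larger call count in allografts was thus made up mostly of genes that had the same sign in isografts. Choosing genes that passed in allografts alone favours larger allograft medians. The 15 genes that rose in isografts alone had medians of 0.51 log2 in allografts and 1.12 in isografts. Without allograft replicate 3 the allograft count was 421 genes in place of 850 (5.98%), and without isograft replicate 2 the isograft count was 92 in place of 211 (1.48%). Leaving out normal DA replicates 2 or 3 gave 440 and 485 allograft calls, and leaving out normal Lewis replicates 1 or 2 gave 127 and 136 isograft calls. Leaving out any 1 array, or both arrays that stand apart, gave no gene that passed the test of the difference.

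MHC class II and macrophage genes had the most positive median differences of the 45 gene lists compared. Which of the 2 lists led changed with the array left out, at 1.47 log2 for class II and 1.49 for macrophage genes without allograft replicate 1. Class II molecules show peptides from outside the cell to CD4+ T cells, and in rats they are encoded by the RT1-B and RT1-D genes. Of 9 class II genes measured, 8 rose in allografts and 2 in isografts (Ctss and Ifi30, enzymes that prepare peptides), and 0 passed the test of the difference. Their median difference was 1.39 log2, against 0.02 over all genes, all 9 were positive, and 7 reached an unadjusted p under 0.05. On day 2 itself, 5 of the 9 were higher in allografts than in isografts at an adjusted p under 0.05 (0.366% of all genes were), namely RT1-Db1, RT1-Da, RT1-Bb, Cd74 and Ctss. Ctss is also a member of the macrophage list, so both lists count it. Without isograft replicate 2 its difference of 1.73 log2 was the median of both lists.

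The class II alpha chain RT1-Da had 11.13, 10.14 and 10.04 log2 in allografts, 7.47, 6.95 and 6.79 in normal DA hearts, 7.79, 9.56 and 7.56 in isografts and 7.20, 7.33 and 7.18 in normal Lewis hearts. All allografts lay above all isografts, and isograft replicate 2 was far above its group. RT1-Da rose by 3.37 log2 in allografts (adjusted p = 9.51e-05, limma), its isograft change was 1.07 (adjusted p = 0.393), and the difference of 2.30 (SE 0.64, 95% interval 0.97 to 3.63) did not pass. For the beta chain RT1-Db1 the values were 8.96, 7.73 and 8.55 in allografts, 6.13, 6.15 and 5.76 in normal DA hearts, 5.86, 7.20 and 5.74 in isografts and 6.15, 6.58 and 6.19 in normal Lewis hearts. Its isografts, apart from replicate 2, were below every normal Lewis array, and its difference was 2.44 log2 (SE 0.62). The beta chain RT1-Bb had a difference of 2.22 log2 (SE 0.74) and Cd74, the invariant chain that guides class II molecules through the cell, of 1.91 (SE 0.70). Without isograft replicate 2 the class II median was 1.73 log2, and without allograft replicate 3 it was 1.24. The transcriptional switch of class II genes, Ciita, had 6.57, 6.78 and 5.88 in allografts, 6.05, 5.81 and 5.90 in normal DA hearts, 5.99, 5.97 and 5.98 in isografts and 5.90, 6.14 and 6.26 in normal Lewis hearts. Its groups overlapped, with a difference of 0.61 log2 (SE 0.50). Of the 9 class II genes, 8 were at least 2-fold higher on leukocyte arrays than on endothelial arrays, and the part of leukocyte transcripts in the class II values was not tested. Whether the probes bind DA and Lewis alleles of class II genes alike was not tested either. Between normal hearts 0 of the 9 passed the test, with a median DA minus Lewis difference of -0.17 log2.

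**Figure D2:**
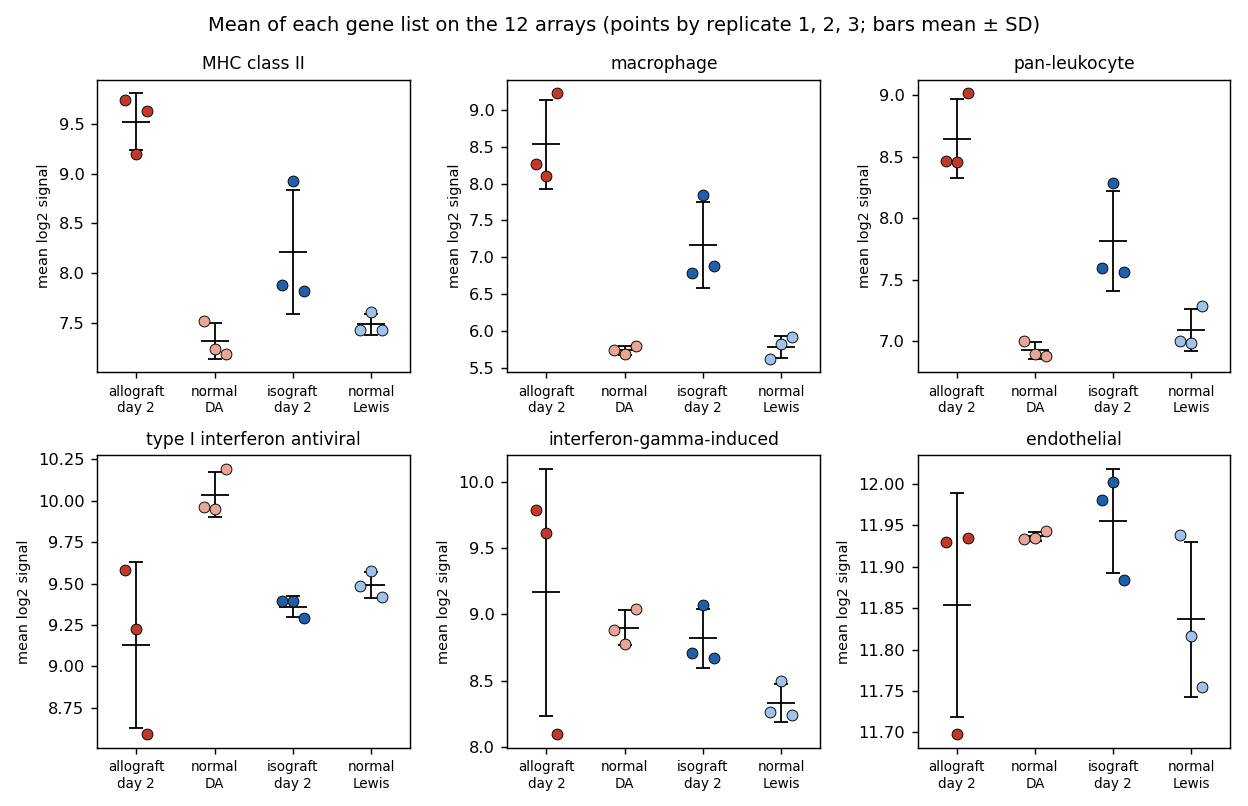
Points are arrays and the vertical axes give the mean log2 signal of a list's members, with bars for the group mean ± SD (n = 3). Allografts are above the other groups for MHC class II, macrophage and pan-leukocyte genes, allograft replicate 3 (right-hand point) is lowest for both interferon lists, and endothelial means stay within 11.70 to 12.002.

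Most macrophage and pan-leukocyte genes rose in allografts, and some of them in isografts. Of 21 macrophage genes, 20 rose in allografts and 7 in isografts, and 0 passed the test of the difference. All 21 differences were positive with a median of 1.38 log2, and 16 reached an unadjusted p under 0.05. Higher in allografts than in isografts on day 2 were 5 of them, Fcgr2b, Cd163, Clec10a, Ctss and Ms4a7. The macrophage mean was 8.26, 8.11 and 9.23 log2 in allografts, 5.74, 5.68 and 5.80 in normal DA hearts, 6.79, 7.84 and 6.88 in isografts and 5.62, 5.83 and 5.91 in normal Lewis hearts. Allograft replicate 3 and isograft replicate 2 were each the highest of their group. The median difference was 0.97 log2 without allograft replicate 3, 1.73 without isograft replicate 2 and 1.37 without both. The count at an unadjusted p under 0.05 was 10 of 21 without allograft replicate 3.

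The scavenger receptor for haemoglobin Cd163 had 6.64, 6.998 and 8.85 log2 in allografts, 4.42, 4.23 and 4.09 in normal DA hearts, 4.43, 5.77 and 4.75 in isografts and 4.19, 4.27 and 4.04 in normal Lewis hearts. Allografts did not overlap any other group. Cd163 rose by 3.25 log2 in allografts (adjusted p = 0.000303, limma), had an isograft change of 0.82 (adjusted p = 0.652), and differed between changes by 2.43 (SE 0.69). The inhibitory antibody receptor Fcgr2b had a difference of 2.50 log2 (SE 0.81), with 7.77, 7.46 and 8.60 in allografts, 3.85, 4.34 and 4.29 in normal DA hearts, 4.87, 6.78 and 4.67 in isografts and 4.26, 4.42 and 3.79 in normal Lewis hearts. Lysozyme (Lyz2), which digests bacterial walls, rose in both graft types, by 4.70 log2 in allografts and 2.86 in isografts, with a difference of 1.83 (SE 0.47). The cytoskeletal calcium-binding gene Aif1 had a difference of 2.18 log2 (SE 0.77).

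Among 18 pan-leukocyte genes, 13 rose in allografts and 3 in isografts (Cd53, Fcer1g and Tyrobp), with a median difference of 1.03 log2 and 13 at an unadjusted p under 0.05 (9 without allograft replicate 3). Ptprc, which encodes the CD45 protein used for depletion, had a difference of 1.49 log2 and rose by 2.82 log2 in allografts (adjusted p = 0.000503, limma). Coro1a, a regulator of actin in leukocytes, had 8.90, 8.86 and 9.30 log2 in allografts, 6.41, 5.98 and 5.64 in normal DA hearts, 7.14, 8.43 and 6.80 in isografts and 6.54, 6.09 and 6.86 in normal Lewis hearts. Its allografts were the highest arrays, with isograft replicate 2 next, and its difference was 2.05 (SE 0.61). Differences of Cd53, a membrane organizer, Fcer1g, the signalling chain of Fc receptors, and Itgb2, the beta chain of leukocyte integrins, were 1.93 (SE 0.66), 1.83 (SE 0.55) and 1.54 log2 (SE 0.53). Of all 14217 genes, 9.66% were at least 2-fold higher on leukocyte than on endothelial arrays, while 54% of the 289 genes with a positive difference at an unadjusted p under 0.05 were, and 1.05% of the 191 with a negative one. Leukocyte arrays had been normalized apart, and their median shift of 0.353 log2 was removed for this count.

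Transcripts of inflammatory signals had differences of the same sign in single genes, and their list medians stayed small. Il1b, the fever cytokine of activated macrophages, had the largest positive difference of all 14217 genes, 3.12 log2 (SE 1.00, 95% interval 1.05 to 5.20). It had 9.76, 10.44 and 11.04 log2 in allografts, 5.46, 5.62 and 5.29 in normal DA hearts, 7.39, 10.48 and 7.32 in isografts and 5.92, 6.86 and 6.90 in normal Lewis hearts. Isograft replicate 2 lay within the allograft range and the other isografts more than 2 log2 below it. Il1b rose by 4.96 log2 in allografts (adjusted p = 0.000185, limma), and its isograft change was 1.83 (adjusted p = 0.314). Among 24 inflammatory targets of NF-kB, a transcription factor of the alarm response, the differences had a median difference of 0.06 log2, and only Il1b at an unadjusted p under 0.05. In allografts Il1b, Ptgs2, Tnfaip3 and Sod2 rose and Tnf fell, and in isografts Ptgs2, a prostaglandin synthase, rose.

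Of 16 CC chemokines, which draw monocytes and T cells, 6 rose in allografts and 3 in isografts (Ccl2, Ccl6 and Ccl7), with a median difference of 0.24 log2 and 4 at an unadjusted p under 0.05 (Ccl3, Ccl6, Ccl9 and Ccl17), and Ccl6 alone did without allograft replicate 3. Ccl6, a chemokine of myeloid cells, had 9.39, 8.97 and 9.66 log2 in allografts, 4.51, 5.64 and 5.19 in normal DA hearts, 6.87, 9.03 and 7.09 in isografts and 5.64, 5.32 and 5.38 in normal Lewis hearts. Isograft replicate 2 again lay among the allografts, and the difference was 2.01 (SE 0.77). Ccl3, a monocyte and T cell attractant, and Ccl9, a myeloid chemokine, had differences of 1.44 (SE 0.55) and 1.08 log2 (SE 0.47). Among 12 chemokines of the other families, Cxcl2, Cxcl3 and Pf4 rose and Cxcl12 fell in allografts, and Cxcl2 rose in isografts. There Pf4, a platelet and macrophage chemokine, had a difference of 1.51 log2 (SE 0.60), Cxcl2 of 0.90 (SE 0.77) and Cxcl3 of 0.88 (SE 0.33), the last 2 being neutrophil attractants. The difference of Pf4 was 0.83 log2 without allograft replicate 3.

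Complement, which tags targets for phagocytes, had 6 of 17 genes up in allografts and 2 in isografts (C5ar1 and Serping1), with a median difference of 0.32 log2 and 4 at an unadjusted p under 0.05. These 4 were the starter subunits C1qa, C1qb and C1qc, with differences of 1.65 (SE 0.47), 1.38 (SE 0.54) and 1.17 log2 (SE 0.50), and the protease of the alternative pathway Cfd at 1.65 log2 (SE 0.62). C1qa, C1qb and C1qc are also members of the macrophage list, so both lists count them. Without allograft replicate 3 the differences of C1qa, C1qb, C1qc and Cfd were 1.18, 0.79, 0.55 and 1.33 log2, and 2 of the complement list were at an unadjusted p under 0.05. All 4 of these genes had their highest value on allograft replicate 3, and each was more than 4 log2 higher on the leukocyte arrays than on the endothelial arrays. Of 14 Toll-like receptor genes, sensors of microbes and of tissue damage, Tlr1, Tlr2, Tlr7, Tlr8 and Cd14 rose and Tlr4 and Traf6 fell in allografts, and Tlr2 and Cd14 rose in isografts. The median difference was 0.16 log2. Tlr2 had 7.71, 7.74 and 8.37 log2 in allografts, 5.75, 5.62 and 5.35 in normal DA hearts, 7.07, 7.88 and 7.19 in isografts and 6.33, 5.83 and 6.16 in normal Lewis hearts. It rose by 2.36 in allografts and by 1.27 in isografts, and its grafts overlapped while its normal DA arrays were lowest. The differences of Tlr2, Tlr8, Tlr1 and the co-receptor Cd14 were 1.09 (SE 0.36), 1.07 (SE 0.45), 1.06 (SE 0.36) and 1.04 log2 (SE 0.48).

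Neutrophil genes numbered 17, of which 6 rose in allografts and 0 in isografts. Their median difference was 0.38 log2, with all 17 positive and 3 at an unadjusted p under 0.05 (Csf3r, Cxcr2 and Defa5). The median DA minus Lewis difference of normal hearts was -0.14 log2. On day 2 the median allograft minus isograft difference was 0.15, with 0 members called higher and 1 lower. List means were 5.53 to 6.49 in allografts and 5.41 to 5.99 in isografts, which overlapped. They were 5.10 to 5.11 in normal DA and 5.31 to 5.53 in normal Lewis hearts. S100a9, an abundant calcium-binding gene of neutrophils, had 6.62, 8.49 and 10.77 log2 in allografts, 4.998, 4.73 and 4.58 in normal DA hearts, 4.92, 8.16 and 5.28 in isografts and 4.93, 4.78 and 4.96 in normal Lewis hearts. Its allograft values spanned over 4 log2, so that the difference of 2.63 had an SE of 1.28. S100a8, its partner, had a difference of 2.03 log2 (SE 1.06) and Csf3r, the receptor for the neutrophil growth factor, of 1.42 (SE 0.63), both again highest on allograft replicate 3. The decoy receptor for interleukin 1, Il1r2, had a difference of 1.05 log2 (SE 0.82). Leaving out allograft replicate 3 gave differences of 1.56 log2 for S100a9, 0.88 for S100a8, 0.65 for Csf3r and 0.12 for Il1r2. The list median was 0.66 log2 without dim genes and 0.23 after quantile normalization.

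T cell transcripts were low and few of them changed. Of 18 T cell genes, 3 rose in allografts (Cd3g, Cd8a and Lck) and 1 in isografts (Lck), with a median difference of 0.38 log2 and Cd3g and Cd8a at an unadjusted p under 0.05. The T cell receptor chain Cd3g had 7.71, 7.31 and 7.31 log2 in allografts, 5.09, 5.71 and 5.52 in normal DA hearts, 5.85, 7.28 and 5.59 in isografts and 5.93, 5.50 and 5.95 in normal Lewis hearts. Every allograft was above every isograft, though replicate 2 of the isografts by only a few hundredths. Cd3g rose by 2.00 log2 in allografts (adjusted p = 0.0235, limma) with a difference of 1.55 (SE 0.73), and Cd8a, the coreceptor of killer T cells, rose by 1.88 log2 (adjusted p = 0.00235) with a difference of 1.21 (SE 0.50). Differences of Cd3e, another receptor chain, and Cd5, a brake on T cell signals, were 1.04 (SE 0.55) and 0.93 log2 (SE 0.66), with allograft replicate 3 the lowest allograft for both. Of 17 genes of cytotoxic lymphocytes 0 rose or fell in either graft type. Among them the killer protease Gzmb had 6.12, 5.64 and 4.67 log2 in allografts, 5.15, 4.80 and 5.06 in normal DA hearts, 5.26, 4.83 and 5.27 in isografts and 4.68, 5.30 and 5.41 in normal Lewis hearts. Allografts 1 and 2 were above all other arrays, and the groups overlapped through allograft 3. The Gzmb difference was 0.49 log2, or 0.89 without allograft replicate 3. The cytotoxic list had 15 of 17 differences positive and a median of 0.24 log2, or 0.42 without that array. Ifng, the gene of interferon-gamma itself, had a difference of 0.47 (SE 0.42).

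**Figure D3:**
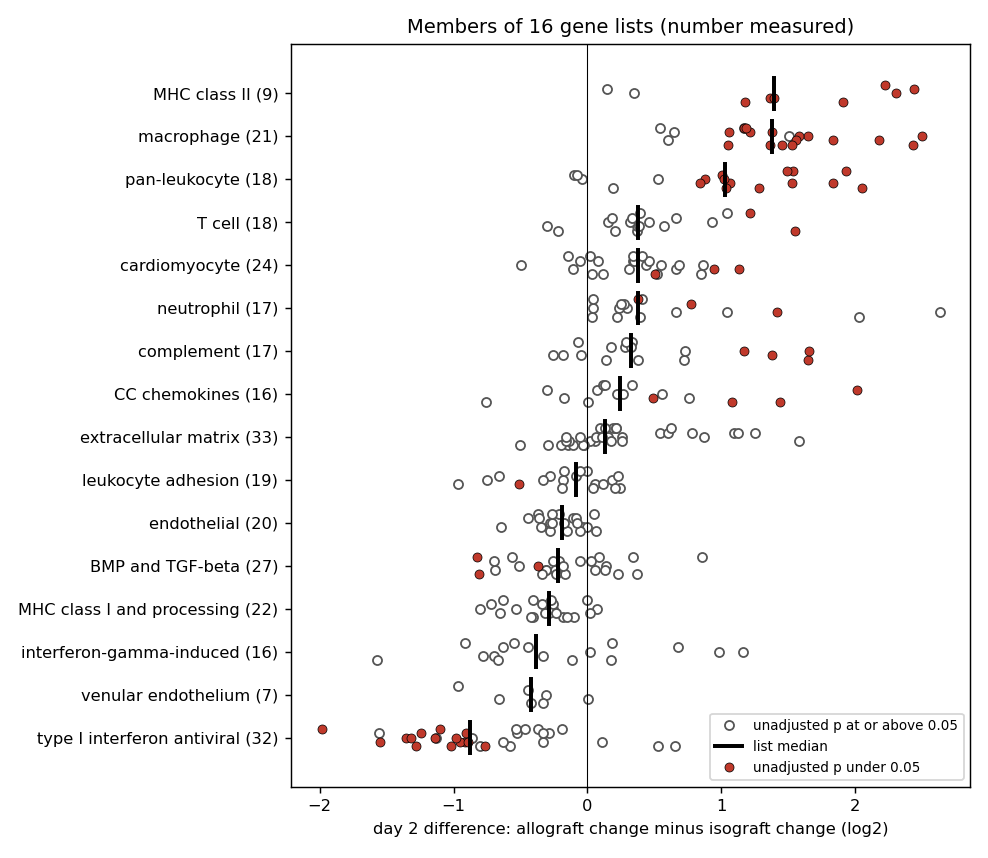
Each point is a gene, placed by its day 2 difference (allograft change minus isograft change, log2) within 16 gene lists ordered by median (black bar), and filled where the unadjusted p was under 0.05. MHC class II, macrophage and pan-leukocyte members lie mostly above 0, type I interferon antiviral members mostly below, and members of the endothelial list within -0.65 to 0.06.

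Type I interferon antiviral genes had mostly negative differences. These genes are switched on by the interferon-stimulated gene factor complex and by interferon regulatory factors, which bind repeats of GAAA in promoters. Of 32 measured, 14 fell and 1 rose (Epsti1) in allografts, 0 changed past the threshold in isografts, 29 had a negative difference, and 15 reached an unadjusted p under 0.05. The median difference was -0.88 log2, and none of the 32 passed the test of the difference. Promoters of 23 of the 32 were in the RefSeq table used here (GRCr8), and 13 of them (56.5%) held GAAANNGAAA on either strand within 250 bases before the gene's start, against 2.68% of 13192 promoters of tested genes. Other lists held the pattern too, in 7 of 14 promoters of the interferon-gamma list and 4 of 15 (26.7%) of the macrophage list. On the opposite strand the pattern reads TTTCNNTTTC, and overlapping matches were counted apart. Of this list's 4 largest differences, Mx2 and Isg15 were not searched here, Mx1 held no match and Irf7 held one. Shown are the upstream bases of Irf7 and of the pair with a match and the smallest p, chosen after their values were seen, with each match in capitals. They lie at chr1:205800024-205800273 on the minus strand (Irf7), chr3:67683969-67684218 on the minus strand (Ifih1) and chr6:21940904-21941153 on the plus strand (Eif2ak2), each written 5′ to 3′ along the gene.
Irf7: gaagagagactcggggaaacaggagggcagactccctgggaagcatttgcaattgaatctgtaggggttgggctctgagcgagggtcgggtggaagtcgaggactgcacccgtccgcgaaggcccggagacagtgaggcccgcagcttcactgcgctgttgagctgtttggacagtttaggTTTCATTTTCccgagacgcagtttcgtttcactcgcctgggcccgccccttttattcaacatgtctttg
Ifih1: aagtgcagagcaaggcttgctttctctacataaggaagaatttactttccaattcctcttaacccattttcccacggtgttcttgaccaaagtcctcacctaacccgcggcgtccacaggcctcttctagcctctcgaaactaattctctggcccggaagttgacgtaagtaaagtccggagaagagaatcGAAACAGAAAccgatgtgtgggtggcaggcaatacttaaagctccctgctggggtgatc
Eif2ak2: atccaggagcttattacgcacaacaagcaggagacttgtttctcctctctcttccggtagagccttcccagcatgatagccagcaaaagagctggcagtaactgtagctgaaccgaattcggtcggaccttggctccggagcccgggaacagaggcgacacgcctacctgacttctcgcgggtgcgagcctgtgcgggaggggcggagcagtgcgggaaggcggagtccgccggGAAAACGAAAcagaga
A match is a description of letters and says nothing on binding in these cells.

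Irf7, the regulator that amplifies interferon production, had 11.24, 10.65 and 9.25 log2 in allografts, 11.73, 12.12 and 12.58 in normal DA hearts, 10.54, 10.61 and 10.33 in isografts and 10.78, 10.72 and 10.63 in normal Lewis hearts. Normal DA hearts were above every other array, allografts spread over 2 log2 around the isografts, and both Lewis groups were close together. Irf7 fell by 1.76 log2 in allografts (adjusted p = 0.0227, limma), its isograft change was -0.21 (adjusted p = 0.958), and the difference was -1.55 (SE 0.64). The virus-blocking GTPase Mx2 had the most negative difference of all 14217 genes, -1.98 log2 (SE 0.70), with 9.16, 7.75 and 6.33 in allografts, 10.06, 9.78 and 9.89 in normal DA hearts, 9.16, 8.83 and 8.83 in isografts and 9.24, 9.14 and 8.97 in normal Lewis hearts. Only allografts 2 and 3 were below the other groups. Its relative Mx1 and the ubiquitin-like modifier Isg15 had differences of -1.56 (SE 0.78) and -1.36 log2 (SE 0.64). Without allograft replicate 3 the differences were -1.28 log2 for Mx2, -0.84 for Mx1, -0.98 for Irf7 and -0.88 for Isg15, all still negative. Ifih1, a sensor of viral RNA, and Eif2ak2, the kinase that stops translation on viral RNA, whose promoters are shown, fell by 1.23 and 0.98 log2 in allografts with differences of -0.98 and -1.10.

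The strain baseline and allograft replicate 3 moved with this pattern. The list mean was 9.58, 9.22 and 8.59 log2 in allografts, 9.96, 9.95 and 10.19 in normal DA hearts, 9.40, 9.40 and 9.29 in isografts and 9.48, 9.58 and 9.42 in normal Lewis hearts. On day 2 allografts and isografts overlapped, whereas normal DA hearts were above normal Lewis hearts on every array. For each gene, the difference of changes is the day 2 allograft minus isograft difference, less the DA minus Lewis difference of normal hearts. Why normal DA hearts were higher was not tested. The median DA minus Lewis difference of normal hearts was 0.37 log2, and the median allograft minus isograft difference on day 2 was -0.27. Between normal hearts 1 member, Ifit1, passed the test (0.485% of all genes were higher and 0.528% lower in DA), at 3.67 log2 (adjusted p = 2.45e-08, limma), and it was also higher in allografts than in isografts by 2.42 log2. It fell by 1.25 log2 in allografts all the same. Without allograft replicate 3 the list median was -0.62 log2 with 4 members at an unadjusted p under 0.05, and without both arrays that stand apart it was -0.50 with 3. The genes that relay interferon signals had a median of -0.16 log2 over 18 members. Irf9, a subunit of the factor complex named above, fell by 1.09 log2 in allografts (adjusted p = 0.00261) with a difference of -0.72 (SE 0.30), and the receptor chain Ifngr1 had a difference of 0.44 (SE 0.19).

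Genes induced by interferon-gamma, the product of activated T and NK cells, had no member past the test of the difference on day 2. Of 16 measured, 1 rose (Cxcl11) and 1 fell (Irgm) in allografts, 0 changed past the threshold in isografts and 0 reached an unadjusted p under 0.05 in the difference. Their median difference was -0.39 log2 and turned to 0.13 without allograft replicate 3. Between normal hearts the median DA minus Lewis difference of the list was 0.43 log2, and the median allograft minus isograft difference on day 2 was 0.18. Cxcl11, which attracts T cells, had 11.58, 11.12 and 7.67 log2 in allografts, 6.59, 6.17 and 6.23 in normal DA hearts, 8.20, 9.27 and 8.19 in isografts and 5.47, 6.10 and 6.19 in normal Lewis hearts. Allografts 1 and 2 were the highest arrays and allograft 3 fell below all isografts. Cxcl11 rose by 3.80 log2 in allografts (adjusted p = 0.00194, limma), its isograft change was 2.64 (adjusted p = 0.0653), and the difference was 1.16 (SE 0.98), which was 2.39 without allograft replicate 3 and 2.74 without both arrays that stand apart. Ido1, the tryptophan-degrading enzyme, had 7.34, 6.84 and 4.92 in allografts, 5.41, 5.74 and 5.83 in normal DA hearts, 5.31, 5.02 and 5.02 in isografts and 5.34, 5.28 and 5.59 in normal Lewis hearts. Here too allografts 1 and 2 were above all other arrays and allograft 3 was the lowest of all 12, and the difference of 0.99 log2 (SE 1.03) was 1.71 without it. Gbp4, a guanylate-binding GTPase, and Ubd, a ubiquitin-like protein, had differences of -1.57 (SE 0.82) and -0.92 log2 (SE 0.72), which were -0.79 and 0.07 without allograft replicate 3.

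The interferon-gamma list had a higher median difference on days 3 and 4 than on day 2, in comparisons that share their normal hearts. The interferon-gamma median was -0.39, 1.02 and 1.92 log2 on days 2, 3 and 4, the class I median -0.29, 0.03 and 0.26, the class II median 1.39, 1.02 and 1.74, and the macrophage median 1.38, 0.02 and 0.44. In the day 2 minus day 4 difference between graft types, in which normal hearts cancel, 0 genes were higher (0%) and 1 was lower (0.00703%) in limma, and at an unadjusted p under 0.05 there were 129 higher (0.907%) and 216 lower (1.52%). That gene was Sectm1b, a transcript of the interferon-gamma list, at -2.68 log2 (adjusted p = 0.00662). It had 7.22, 7.23 and 6.67 log2 in allografts of day 2, 6.36, 6.42 and 6.43 in normal DA hearts, 6.43, 6.49 and 6.64 in isografts and 6.46, 6.64 and 6.56 in normal Lewis hearts. Allografts were above all other groups, replicate 3 by a narrow margin, and the differences of changes were 0.68, 1.81 and 3.35 log2 on days 2, 3 and 4. Of the 16 interferon-gamma genes 14 had a day 2 minus day 4 difference below 0 at an unadjusted p under 0.05, as had 10 of 22 class I genes, while 8 macrophage genes had one above 0 and 1 below.

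**Figure D4:**
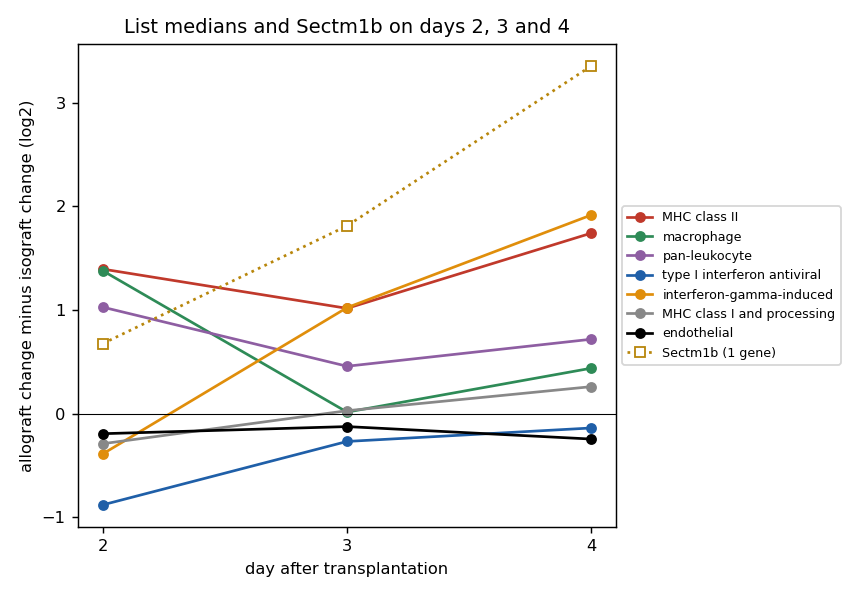
The vertical axis gives the allograft change minus the isograft change (log2), as list medians over members (lines) and for Sectm1b (squares), on days 2, 3 and 4 along the horizontal axis; normal hearts are shared between days. The macrophage median is 1.38, 0.02 and 0.44 log2 and the interferon-gamma median -0.39, 1.02 and 1.92.

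MHC class I, which shows peptides from inside the cell to CD8+ T cells, had 0 of 22 genes changed past the threshold in either graft type and a median difference of -0.29 log2, with 20 negative. The list's median DA minus Lewis difference was 0.32 log2 in normal hearts, and its median allograft minus isograft difference on day 2 was 0.11. Single class I genes differed between the strains. Between normal hearts RT1-T24-4, RT1-CE16, RT1-CE10 and RT1-S3 were higher and RT1-A3 was lower in DA, and on day 2 RT1-T24-4 and RT1-CE16 were higher and RT1-A3 lower in allografts than in isografts. RT1-CE16 had 9.90, 9.68 and 9.30 log2 in allografts, 9.86, 10.19 and 10.39 in normal DA hearts, 7.21, 7.14 and 7.86 in isografts and 6.90, 6.91 and 7.81 in normal Lewis hearts. DA and Lewis arrays were apart with and without transplantation, by 2.94 log2 between normal hearts (adjusted p = 4.47e-07, limma) and 2.22 between grafts (adjusted p = 3.67e-05). RT1-CE10, RT1-N3 and RT1-CE5 had differences of -0.80 (SE 0.43), -0.65 (SE 0.38) and -0.63 log2 (SE 0.86). RT1 class I genes are near-identical copies that vary between strains, so the single genes are uncertain, and allele-dependent binding to the probes was not tested.

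Venules are the vessels through which leukocytes leave the blood. Of 7 venular genes, the same 5 (Ackr1, Selp, Sele, Vcam1 and Plvap) rose in allografts and in isografts, with a median difference of -0.42 log2 and 0 at an unadjusted p under 0.05. E-selectin (Sele), which slows leukocytes in the blood stream, had 11.44, 11.49 and 11.27 log2 in allografts, 9.46, 8.52 and 9.06 in normal DA hearts, 10.73, 12.24 and 10.71 in isografts and 7.69, 8.37 and 7.55 in normal Lewis hearts. The grafts overlapped and every normal DA array was above every normal Lewis array. Sele rose by 2.39 log2 in allografts and 3.36 in isografts, and its difference was -0.97 (SE 0.53, 95% interval -2.07 to 0.14), or -0.46 without isograft replicate 2. The adhesion receptor Vcam1 rose by 1.10 and 1.76 log2 with a difference of -0.66 (SE 0.45), Plvap, which forms the diaphragms of leaky vessels, by 1.98 and 2.42 with -0.44 (SE 0.37), and the chemokine-binding receptor Ackr1 by 2.39 and 2.81 with -0.42 (SE 0.42). Ackr1 was also higher in normal DA than in normal Lewis hearts, by 1.25 log2 (adjusted p = 0.0449, limma). Over 19 leukocyte adhesion genes the median difference was -0.08 log2, and Sele, Selp, Vcam1 and Madcam1 rose in both graft types, Alcam rose in allografts, and Icam2, Podxl and Lgals9 fell in allografts. One of them, Lgals9, a sugar-binding protein, fell by 0.73 log2 in allografts and had a difference of -0.51 (SE 0.21), and Icam1, a partner of leukocyte integrins, had a difference of -0.75 (SE 0.77) that was 0.05 without isograft replicate 2.

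**Figure D5:**
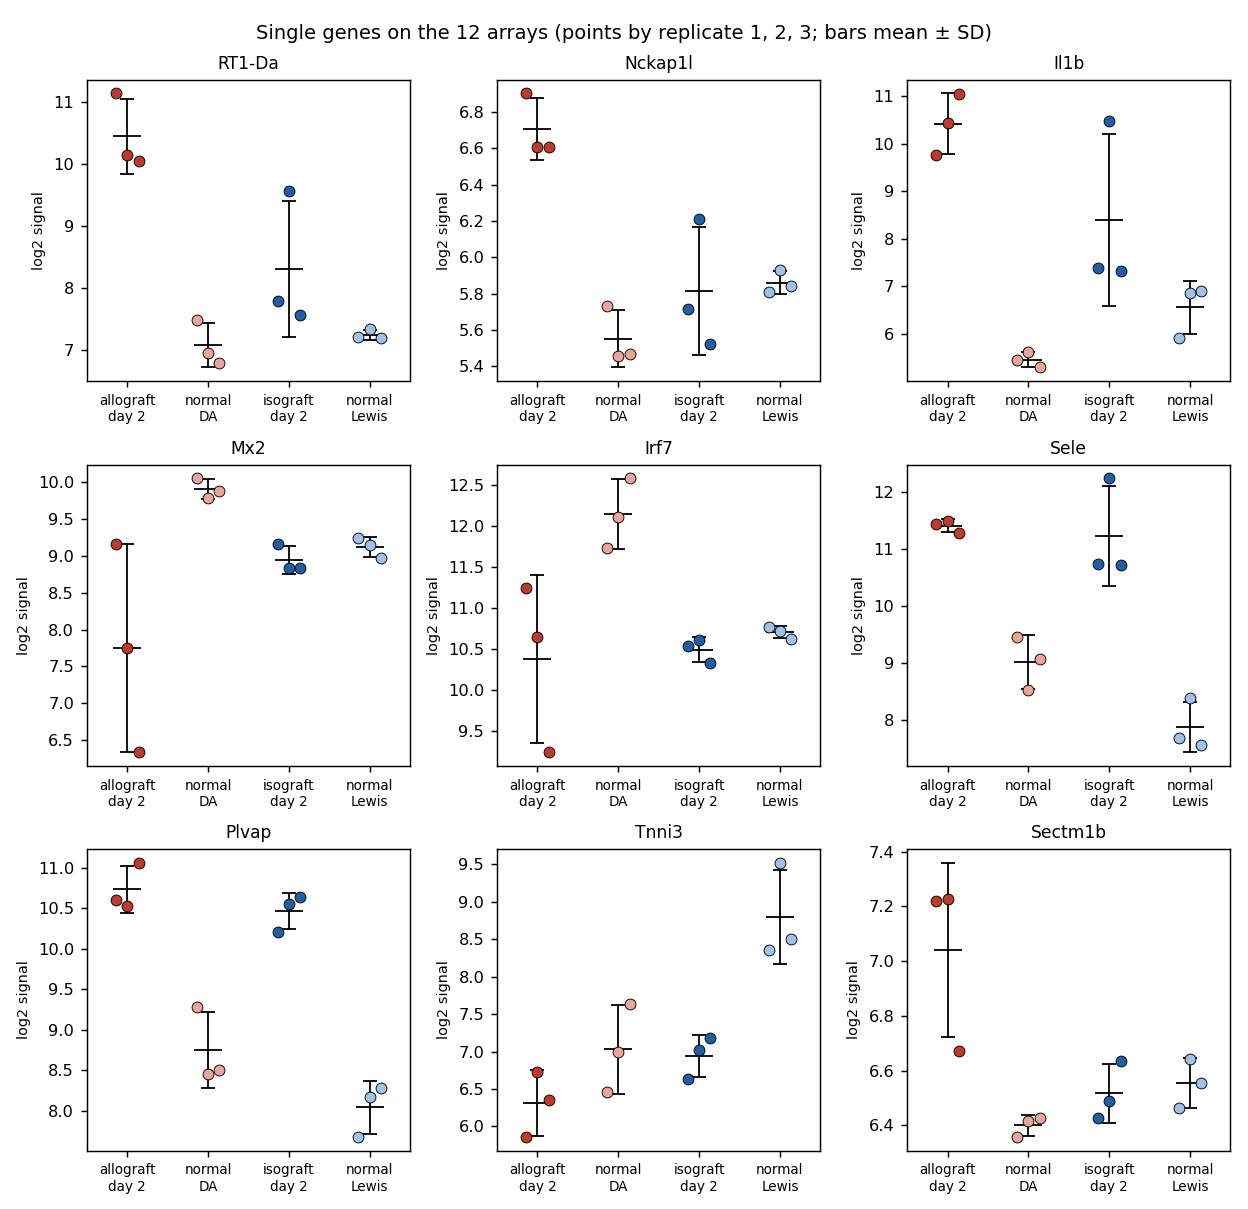
Points are arrays, in order of replicate number, and bars give mean ± SD (n = 3) of the log2 signal on axes that do not start at 0. RT1-Da and Nckap1l are highest in allografts with isograft replicate 2 next, isograft replicate 2 lies among the allografts for Il1b, Mx2 and Irf7 are highest in normal DA hearts, Sele and Plvap are high in both graft types, and Tnni3 is highest in normal Lewis hearts.

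The endothelial list itself had a median difference of -0.19 log2 over 20 genes, with 18 negative, a range of -0.65 to 0.06 and 0 at an unadjusted p under 0.05. Vwf and Plvap rose and Kdr and Icam2 fell in allografts, and Plvap rose in isografts. Pecam1, which encodes the CD31 protein used for collection, had a difference of -0.17 log2, with an allograft change of -0.12 and an isograft change of 0.06. Kdr, the main receptor for vascular endothelial growth factor, fell by 1.04 log2 in allografts (adjusted p = 0.00097, limma), had an isograft change of -0.67 (adjusted p = 0.0664) and a difference of -0.37 (SE 0.25). Nos3, the nitric oxide synthase of endothelium, had 10.33, 9.53 and 10.83 log2 in allografts, 10.77, 10.72 and 11.12 in normal DA hearts, 10.63, 10.63 and 10.21 in isografts and 10.99, 10.14 and 10.32 in normal Lewis hearts. The 4 groups overlapped, and the difference was -0.65 (SE 0.47). The angiopoietin co-receptor Tie1 had a difference of -0.36 log2 (SE 0.31).

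Bone morphogenetic protein and TGF-beta signalling helps keep endothelium quiescent. Of its 27 genes 9 fell and 1 rose (Tgfbi) in allografts, where 2.45% of all genes fell, and 3 fell in isografts (Smad9, Id1 and Id3), where 0.422% did, with a median difference of -0.22 log2. Smad5, Smad9 and Ltbp1 had a negative difference at an unadjusted p under 0.05. Smad9, which carries bone morphogenetic protein signals to the nucleus, had 5.16, 5.11 and 5.26 log2 in allografts, 6.76, 6.53 and 7.40 in normal DA hearts, 5.52, 5.31 and 5.32 in isografts and 6.57, 6.44 and 5.87 in normal Lewis hearts. All grafts were below all normal hearts, and all allografts below all isografts. Smad9 fell by 1.72 log2 in allografts (adjusted p = 3.01e-05, limma) and by 0.91 in isografts (adjusted p = 0.0244), with a difference of -0.81 (SE 0.29). The TGF-beta binding protein Ltbp1 fell by 1.16 log2 in allografts with a difference of -0.83 (SE 0.38), and the inhibitory Smad6 by 1.21 with -0.70 (SE 0.34). Tgfbi, a matrix protein induced by TGF-beta, rose by 2.09 log2 in allografts and had a difference of 0.85 (SE 0.47), or 0.49 without allograft replicate 3.

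The 10 genes of smallest p, none of them called, included several that differed between the strains before transplantation. The strain difference of normal hearts enters the day 2 difference with the opposite sign, so these values are not independent of each other. Among the 5 of positive difference, Mis18a, which helps load the centromere histone, had 7.02, 6.65 and 6.97 log2 in allografts, 6.53, 6.10 and 6.08 in normal DA hearts, 8.60, 8.36 and 8.61 in isografts and 8.89, 8.81 and 8.82 in normal Lewis hearts. All DA arrays were below all Lewis arrays, with a DA minus Lewis difference of -2.60 log2 in normal hearts (adjusted p = 5.59e-10, limma), and within each strain the grafts did not overlap the normal hearts. Its difference was 0.97 (SE 0.20, 95% interval 0.54 to 1.39). Pygl, the liver form of glycogen phosphorylase, was lower in normal DA hearts by 1.95 log2 (adjusted p = 1.88e-05) and had a difference of 1.23 (SE 0.31), and the actin-severing Scin was lower by 0.94 (adjusted p = 0.000193) with 0.72 (SE 0.18). Scin fell by 0.64 log2 in isografts (adjusted p = 0.00749), and its allograft change was 0.08. Nckap1l, a regulator of actin in blood cells, had 6.90, 6.61 and 6.61 log2 in allografts, 5.73, 5.46 and 5.46 in normal DA hearts, 5.72, 6.21 and 5.52 in isografts and 5.81, 5.93 and 5.84 in normal Lewis hearts. Only allografts stood out, and the difference was 1.20 (SE 0.26). The fifth was RT1-Db1, described above.

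Among the 5 of negative difference, Nox4, an oxidase of the vessel wall that makes hydrogen peroxide, had 7.46, 7.65 and 6.99 log2 in allografts, 8.89, 8.84 and 8.27 in normal DA hearts, 8.40, 8.86 and 8.53 in isografts and 8.92, 8.12 and 8.46 in normal Lewis hearts. Allografts were below every other array, and the other 3 groups overlapped. Nox4 fell by 1.30 log2 in allografts (adjusted p = 0.00246, limma), had an isograft change of 0.10 (adjusted p = 0.971), was lower in allografts than in isografts on day 2 by 1.23 log2 (adjusted p = 0.0149) and had a difference of -1.39 (SE 0.35). The RNA-binding gene Mex3b fell by 0.91 log2 in allografts with a difference of -1.005 (SE 0.28). Tmem255a, a membrane protein, had 6.12, 5.74 and 5.78 log2 in allografts, 5.84, 5.54 and 5.51 in normal DA hearts, 6.89, 7.25 and 7.10 in isografts and 5.98, 5.47 and 5.77 in normal Lewis hearts. Isografts were the only high group, with a rise of 1.34 log2 (adjusted p = 0.00103), and the difference was -1.09 (SE 0.29). Fam78b was higher in normal DA hearts by 0.82 log2 (adjusted p = 0.00167) and fell by 0.69 in allografts, with a difference of -0.73 (SE 0.19), and the vesicle-tethering Vps52 had a difference of -0.68 (SE 0.18).

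The graft contrast on day 2 shared many calls with the strain contrast of normal hearts. On day 2, 52 genes were higher (0.366%) and 73 lower (0.513%) in allografts than in isografts, 125 in all (0.879%), and 69 were higher and 75 lower in normal DA than in normal Lewis hearts, 144 in all (1.01%). The same 63 genes were called in both with the same sign, which are 50.4% of the graft calls and 43.8% of the strain calls, although no array was shared. Heart muscle genes also differed between normal hearts. Of 24 cardiomyocyte genes 7 were lower in normal DA than in normal Lewis hearts, 3 fell in allografts (Myh6, Myl7 and Mb) and 4 in isografts (Myh6, Tnni3, Tnnc1 and Mb), and their median difference was 0.38 log2 with Myl3, Tnni3 and Actn2 at an unadjusted p under 0.05. Leaving out 1 array at a time, that median ran from 0.08 log2 (without normal Lewis replicate 2) to 0.59. Tnni3, the cardiac troponin I, had 5.86, 6.73 and 6.35 log2 in allografts, 6.45, 6.9998 and 7.64 in normal DA hearts, 6.63, 7.02 and 7.18 in isografts and 8.36, 9.52 and 8.51 in normal Lewis hearts. Normal Lewis hearts stood above all other arrays, and the difference was 1.13 (SE 0.45), with an isograft fall of 1.85 log2 (adjusted p = 0.00311, limma) and an allograft change of -0.72 (adjusted p = 0.217). Its partners Myl3, Tnnt2 and Tnnc1, a myosin light chain and 2 further troponins, had differences of 0.95 (SE 0.41), 0.86 (SE 0.62) and 0.85 log2 (SE 0.41).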

How the data were processed

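RNA of all arrays had been labelled as biotin cRNA with a one-cycle Affymetrix protocol, per the labels' protocols. Each probe set has a deposited log2 signal, computed by the authors with RMA from affy, per the submitters' processing notes. Versions of both are not given in the sources used here. The table had 0 data columns of no sample. Of 31099 probe sets, 20826 had 1 gene in the platform annotation, 436 several and 9780 none. The probe set of highest mean was kept for each of 14217 genes.

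The 24 endothelial arrays were fitted with limma 3.58.1 in R 4.3.3 as 1 mean per group, with Benjamini-Hochberg adjustment over all genes and a threshold of 0.05. Same-numbered arrays of isografts and normal Lewis hearts deviated together (r of 0.292, 0.350 and 0.412), while over all 4 groups r was above 0.1 in 9 of 18 pairs, so numbers were not paired across groups. Members and the 45 gene lists (28 of processes and 17 of cell types) were chosen with earlier results of these data known. Of 938 listed genes 813 were measured, 755 of them distinct. Named genes were, by rule, the 5 of smallest p in each direction where fewer were called, the 4 largest differences of a list, and those called between day 2 and day 4. Other genes named with a small count, and Ptprc, Pecam1, Ifit1, Ifih1 and Eif2ak2, were chosen after their values were seen. The fit was tested on simulated data. Promoters came from RefSeq (GRCr8). Alternatives were another normalization, summary of probe sets, filter, prior, array weights, a replicate block and leaving out arrays.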

Additional observations from a re-analysis of the deposited data

Results flagged for a closer look

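One result was set apart by a test of a difference between days. The difference between the allograft and isograft changes of Sectm1b was smaller on day 2 than on day 4, by -2.68 log2 for day 2 minus day 4 (adjusted p = 0.00662, limma), the single gene of 14217 past that threshold. Its difference of changes was 0.68, 1.81 and 3.35 log2 on days 2, 3 and 4. Without allograft replicate 3 and isograft replicate 2 together the value was -2.51 log2 and no longer passed.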

How the results depend on the processing

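The number of arrays, 3 a group, limits the precision. No gene passed the test of the day 2 difference under any alternative except array weights, which gave 4 higher genes (Mis18a, Nckap1l, RT1-Da and RT1-Db1, 0.0281%) and 2 of the list members. There allograft replicate 1 of day 2 had a weight of 2.67, against 0.37 and 0.32 for replicates 2 and 3. The weighted fit also moved the calls to 1937 for allografts, 451 for isografts, 554 for strain, 543 between grafts and 28 for day 2 against day 4, the unadjusted counts to 603 higher and 466 lower, and the list medians to 0.56 log2 (T cell) and -0.46 (type I interferon). In that fit the interferon-gamma median changed sign, to 0.08 log2 in place of -0.39. The unadjusted count was 141 higher without dim genes, where fewer genes were tested, and 381 lower over single probe sets, where more were. Leaving out 1 array at a time gave 0 calls in the difference, 421 to 900 allograft calls, 92 to 255 isograft calls, 75 to 164 strain calls (fewest without normal DA replicate 2), 58 to 129 graft calls (fewest without isograft replicate 1), 1 call between days, and unadjusted counts of 191 to 488 higher and 127 to 283 lower. The interferon-gamma median then ran from -0.52 to 0.13 log2. Leaving out allograft replicate 3 and isograft replicate 2 together, chosen after seeing the data, gave 478 allograft, 114 isograft and 63 graft calls, 0 between days with Sectm1b at -2.51, and medians of 0.59 (T cell), -0.50 (type I interferon) and 0.27 (interferon-gamma). With the replicate block, the pairing by number gave 0 calls in the difference, 1050 in allografts, 255 in isografts, 166 for strain and 144 between grafts, and no median moved. Of 146 named genes, 23 changed sign under some alternative. Leaving out 1 array at a time, the difference ran from -0.76 to 0.32 log2 for Ccl2, -0.29 to 0.78 for Ccl7, -1.29 to 0.0544 for Icam1, -0.42 to 6e-04 for Madcam1 and -0.0642 to 0.78 for Myh6. It ran from -0.32 to 0.30 for Myl7, -0.38 to 0.0686 for Pecam1, -1.34 to 0.40 for Ptgs2, -0.18 to 0.28 for RT1-A3 and -0.75 to 0.22 for Selp. For Serping1 it ran from -0.34 to 0.0237, for Tlr4 from -0.31 to 0.0559, for Tnfaip3 from -0.18 to 0.49, for Ubd from -1.42 to 0.0746 and for Vwf from -0.14 to 0.17. It ran from -0.0247 to 0.32 for Gpx1, -0.0825 to 0.20 for Hif1a, -1.02 to 0.998 for Postn, -0.10 to 0.22 for Rrm1, -1.05 to 0.0659 for Timp1, -0.0117 to 0.43 for Tk1 and -0.0503 to 0.27 for Tnfrsf1a. Without both arrays the values were 0.0103 for Ccl2, 0.0121 for Icam1, 0.0362 for Myl7, 0.31 for Ptgs2, 0.37 for Selp, 0.18 for Ubd, -0.0259 for Vwf, -0.34 for Postn, 0.0653 for Procr and -0.0851 for Tnfrsf1a. Array weights gave 0.14 for Myl7, 0.13 for Ptgs2, 0.35 for Selp, -0.0739 for Vwf, -0.55 for Postn, 0.0105 for Procr and -0.0299 for Tnfrsf1a. RT1-A3 was -0.0527 after quantile normalization and -0.0038 with array medians subtracted. The cause of these changes was not tested. With only the 12 arrays of day 2 and normal hearts, no value for day 2 against day 4 can be had.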

Other observations

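Stress and metabolic genes changed in a few members of their lists. Over all genes, 3.53% rose and 2.45% fell in allografts, and 1.06% rose and 0.422% fell in isografts. The difference was positive in 7642 of all 14217 genes. Of 24 genes of oxidative, metal and heat stress, Hmox1, Mt2A, Sod2 and Gpx1 rose and Sod1 fell in allografts, and Mt2A rose in isografts. Hmox1, the haem-degrading enzyme, had a difference of 1.17 log2 (SE 0.56). Of 25 hypoxia and glycolysis genes, Hif1a, Pgk1, Pgam1, Eno1 and Slc16a3 rose in allografts and Pgk1 in isografts, with 19 of 25 differences positive and a median of 0.07 log2. Among 38 proliferation genes, Ccne1, Mcm5, Rrm1 and Tk1 rose in allografts and 0 in isografts, with a median difference of -0.05 log2. Normal hearts varied in this list, with means of 8.78, 7.82 and 7.52 log2 in DA and 8.39, 7.96 and 7.54 in Lewis. Normal DA replicate 1 was above every graft array. Endoplasmic reticulum stress genes numbered 17, with 0 changed past the threshold in either graft type and a median of -0.11 log2.

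Of 24 cell death genes, Tnfrsf1a and Bcl2a1 rose and Bbc3 fell in allografts, where 3.53% of all genes rose and 2.45% fell. Bcl2a1, a survival gene of blood cells, had a difference of 1.95 log2 (SE 0.74). Of 20 coagulation genes, 1 (Vwf) rose in allografts and 1 (Procr) in isografts, where 1.06% of all genes rose. The clot-stabilizing F13a1 had a difference of 1.28 log2 (SE 0.59). Extracellular matrix genes had a median difference of 0.14 log2 over 33 members, which was -0.30 without allograft replicate 3. Col18a1, Postn, Spp1, Tnc, Vcan and Timp1 rose in allografts, and Col18a1, Spp1 and Timp1 in isografts.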
